A study of Homo sapiens with 27 samples.

Results

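Transforming growth factor beta (TGF-beta) signalling was followed through 10 of its genes. They were the ligands TGFB1, TGFB2 and TGFB3, the receptors TGFBR1 and TGFBR2, and LTBP2 of the latent TGF-beta binding protein family. The others were the signal carrier SMAD3, its inhibitor SMAD7, and the target genes PMEPA1 and TGFBI. The genes were taken by symbol from a list drawn up with earlier results of these data known, and are 10 of the 58721 genes in the count table. All 10 passed the filter on low counts, which left 25199 genes for testing. RNA was sequenced from A375 cells, an established line from a human melanoma with an activating BRAF mutation, in 27 libraries that form 9 groups of 3. Cells made knockout for TADA2B with guide 1, cells made knockout with guide 2, and control cells with a guide against GFP, a sequence human cells lack, were each given 20 nM trametinib, 1 µM vemurafenib or the solvent DMSO for 24 h. Trametinib inhibits the kinase MEK, and vemurafenib inhibits mutant BRAF, which acts upstream of MEK. TADA2B is a subunit of SAGA, a coactivator complex that acetylates histones. The study's title concerns plasticity and therapy resistance of melanoma, and the labels do not say whether the knockout cells were pools or single clones. All cells were of this 1 line and grew in medium with 10% serum.

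TGF-beta ligands are secreted in a latent form, held in the matrix partly through latent TGF-beta binding proteins, and are released before they bind a pair of receptor kinases. TGFBR2 binds the ligand and switches on TGFBR1, which phosphorylates SMAD2 and SMAD3, and these enter the nucleus with SMAD4. There SMAD3 and SMAD4 bind DNA that holds the short element CAGAC. SMAD7 and PMEPA1 are induced by the pathway and restrain it, the first at the receptor and the second by holding SMAD2 and SMAD3 away from it, and in melanoma the pathway is known for its links to invasive, dedifferentiated cell states.

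The regulatory sequences of the feedback genes are shown because PMEPA1 differed most in its drug responses between knockout and control cells and SMAD7 is the other inhibitor of the same kind. They come from RefSeq on GRCh38.p14 and are written from 5′ to 3′ on the gene's strand, with CAGAC or its reverse complement in capitals. The PMEPA1 window is chr20:57710016-57710265 on the minus strand, the 250 bases before the third of the 4 start sites listed, and the SMAD7 window is chr18:48949334-48949583 on the minus strand, the 250 bases before the second of 3. The shorter stretch is chr20:57709993-57710022 on the minus strand, which crosses that PMEPA1 start site and begins at position -7, where -1 is the last base before the start. Both 250-base windows hold no annotated exon bases and were picked after their copies were counted.
PMEPA1 window: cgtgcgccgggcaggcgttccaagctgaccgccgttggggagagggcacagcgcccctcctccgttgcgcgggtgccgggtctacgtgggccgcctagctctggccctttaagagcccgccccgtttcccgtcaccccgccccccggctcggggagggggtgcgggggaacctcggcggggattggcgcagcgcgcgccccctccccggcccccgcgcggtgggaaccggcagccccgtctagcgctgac
PMEPA1 start site: cgctgacgtCAGACcGTCTGcctgcctccg
SMAD7 window: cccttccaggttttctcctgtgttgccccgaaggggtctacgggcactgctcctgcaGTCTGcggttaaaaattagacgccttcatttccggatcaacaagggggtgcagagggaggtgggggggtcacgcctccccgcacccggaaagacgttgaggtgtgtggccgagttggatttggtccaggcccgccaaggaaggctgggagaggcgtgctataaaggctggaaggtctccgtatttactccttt
The PMEPA1 window holds no copy of CAGAC in its 250 bases, and the 30-base stretch at the start site holds 2 copies on opposite strands that do not overlap. The SMAD7 window holds 1 copy, at position -193 from the start site. Of the other SMAD7 windows of 250 bases the first holds 2 copies and the third 0, and of the other PMEPA1 windows the second and the fourth hold 1 each and the first 0. The single TGFB2 window holds 2 copies, the TGFB3, TGFBR1 and SMAD3 windows hold between 0 and 3, and those of TGFB1, TGFBR2, LTBP2 and TGFBI hold 0. Among 35116 promoter windows of 250 bases, 38% held at least 1 copy of CAGAC on either strand. Among windows of 300 bases, which reach 50 bases past the start site, 13.1% held at least 2. At 300 bases the PMEPA1 window shown, 1 of 4 searched for that gene, holds 2 copies, those of the shorter stretch. That stretch was centred on these copies, so the share over windows does not apply to its 30 bases. A match of letters is a description and not a binding site.

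Levels are given in CPM, the counts of a gene scaled to the size of its library. Library totals lay between 67502300 and 92513726 counts, and within each group libraries differed by more than sampling noise. Whether the 3 libraries of a group stem from separate cultures is not in the labels, so p-values measure only a spread between libraries that may be technical. TADA2B itself stood at 30.4 CPM ± 0.773 with guide 1, 28.6 ± 1.21 with guide 2 and 31.2 ± 0.931 in control cells in DMSO (SD, n = 3 each), a knockout effect of log2 -0.08 ± 0.037 that did not pass the test. It was lower with the knockout in trametinib, at 34.9 ± 0.778 CPM with guide 1, 29.3 ± 0.535 CPM with guide 2 and 41.3 ± 1.27 CPM in control cells (log2 -0.37 ± 0.036). It was also lower in vemurafenib, at 32.6 ± 1.06 CPM with guide 1, 28.5 ± 0.881 CPM with guide 2 and 43.8 ± 1.37 CPM in control cells (-0.52 ± 0.036). An edited gene can keep its transcript, so these levels do not check the genotype. Of the melanocyte markers SOX10 (267 to 1121 CPM), MITF (52.1 to 152), S100B (17.3 to 98.8) and S100A1 (20.2 to 38.5) were expressed in all libraries and DCT ranged over 0.128 to 1063 CPM, while TYR, PMEL and MLANA reached at most 0.281, 2.34 and 2.08 CPM. The 8 melanocyte and melanoma markers summed to 364 to 832 CPM over the knockout libraries and 1038 to 2404 CPM over the control libraries. The 6 fibroblast markers summed to 37.3 to 82.1 CPM over the knockout libraries and 16.2 to 21.9 CPM over the control libraries, led by LUM and COL1A1 with THY1 at most 0.377 CPM. The endothelial markers summed to 6.37 to 10.2 CPM in knockout libraries and 16.1 to 22.3 CPM in control libraries, led by KDR and VWF. The keratinocyte markers summed to 3.55 to 15.4 CPM in knockout libraries and 6.94 to 11.0 CPM in control libraries, nearly all KRT14, with KRT1 at 0 in all 27. The leukocyte markers summed to 0.839 to 2.39 CPM in knockout libraries and 0.287 to 3.23 CPM in control libraries, with PTPRC up to 2.91 CPM and CD3E at 0 in 19. Mitochondrially encoded genes took 2.33% to 3.60% of counts in knockout libraries and 1.58% to 2.38% in control libraries. The part of these markers and shares in the results was not tested, and in bulk RNA fewer cells with a transcript and less of it per cell cannot be told apart.

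**Figure D1:**
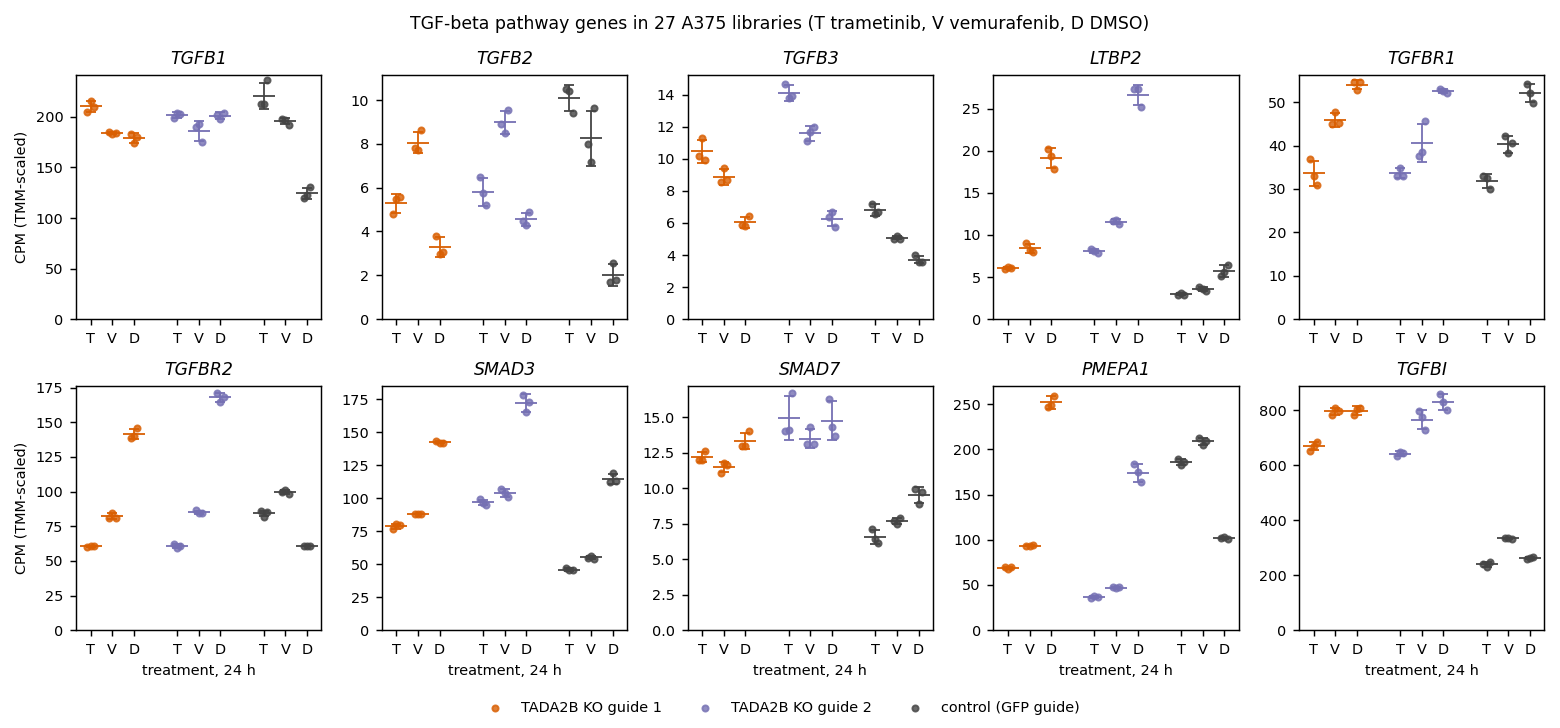
Level of each of the 10 genes in every library, in CPM scaled with TMM factors (y axis, from 0), by treatment (x axis) and cell population (colour). Points are libraries, long bars are means and short bars the SD of 3 libraries. Within knockout cells PMEPA1 and TGFBR2 were highest in DMSO, and within control cells they were lowest in DMSO.

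With TADA2B knocked out, 9 of the 10 genes rose in DMSO, and PMEPA1 and TGFBR2, which both drugs raised in control cells, were lowered by both drugs in knockout cells. The share of all 25199 genes called in the same way is given beside these counts, since calls were frequent (edgeR quasi-likelihood test, Benjamini-Hochberg adjusted p under 0.05). Of those genes 12167 were protein-coding with a mean log2 CPM of at least 1, and the share called among them was not computed. Knockout against control in DMSO called 9 of the 10 genes, all higher, where 57.9% of all genes were called and 29.3% were called higher. At least 2-fold higher were 4 of the 10, LTBP2, TGFBI, TGFBR2 and PMEPA1, against 9.04% of all genes. None was lower, where 28.6% of all genes were. The median log2 fold change was 0.83 over the 10 genes and 0.00 over all genes. In trametinib 5 were higher and 4 lower in knockout cells, where 55.9% of all genes were called, 27.1% higher and 28.8% lower. In vemurafenib 5 were higher and 3 lower, where 55.6% of all genes were called, 27.3% higher and 28.3% lower. The summed fibroblast markers moved in the same direction as the genes that were higher. In DMSO they summed to 37.3 to 48.8 CPM with the knockout and 16.2 to 17.1 CPM without it. That sum was also higher with the knockout in trametinib, at 55.4 to 82.1 CPM against 20.4 to 21.9 CPM. In vemurafenib it was 56.5 to 73.3 CPM against 20.1 to 21.8 CPM, while PMEPA1 and TGFBR2 were lower with the knockout in both drugs. The leukocyte sum was low but also higher in DMSO, at 0.839 to 1.22 CPM with the knockout and 0.287 to 0.389 CPM without it. The melanocyte sum moved the other way in DMSO, at 364 to 594 CPM with the knockout and 1038 to 1111 CPM without it. So did the endothelial sum, at 7.91 to 8.97 CPM with the knockout and 16.1 to 16.6 CPM without it. The fall of the melanocyte sum did not hold for every marker. Of its 8 markers, 6 averaged at least 1 CPM with each guide in DMSO and 5 in control cells. The part of these markers in the counts was not tested.

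Trametinib in control cells raised 5 and lowered 5 of the 10 genes, where 69.0% of all genes were called, 36.4% higher and 32.5% lower. Vemurafenib in control cells raised 6 and lowered 4, where 67.3% of all genes were called, 35.7% higher and 31.6% lower. In knockout cells trametinib raised 3 and lowered 6, where 71.4% were called, 37.2% higher and 34.3% lower. Vemurafenib raised 2 and lowered 7 there, where 69.1% were called, 36.0% higher and 33.1% lower. The median log2 drug response of the 10 genes was -0.49 in knockout cells and 0.17 in control cells for trametinib, and -0.24 in knockout cells and 0.40 in control cells for vemurafenib. Over all genes those medians were 0.04 in knockout cells and 0.06 in control cells for either drug. All these contrasts within a population share its DMSO libraries.

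The difference between the responses of knockout and control cells, tested as an interaction, was called for 8 of the 10 genes with each drug. With trametinib 6 were lower and 2 higher, where 43.9% of all genes were called, 23.2% lower and 20.8% higher. With vemurafenib again 6 were lower and 2 higher, where 42.5% were called, 22.4% lower and 20.0% higher. At least 2-fold lower were 3 of 10 with trametinib, PMEPA1, TGFBR2 and TGFB2, against 5.06% of all genes. With vemurafenib 2 of 10 were, PMEPA1 and TGFBR2, against 4.52% of all genes. The interactions of both drugs use the DMSO libraries that also give the knockout effect in DMSO. Their counts are therefore not independent of that effect or of each other.

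**Figure D2:**
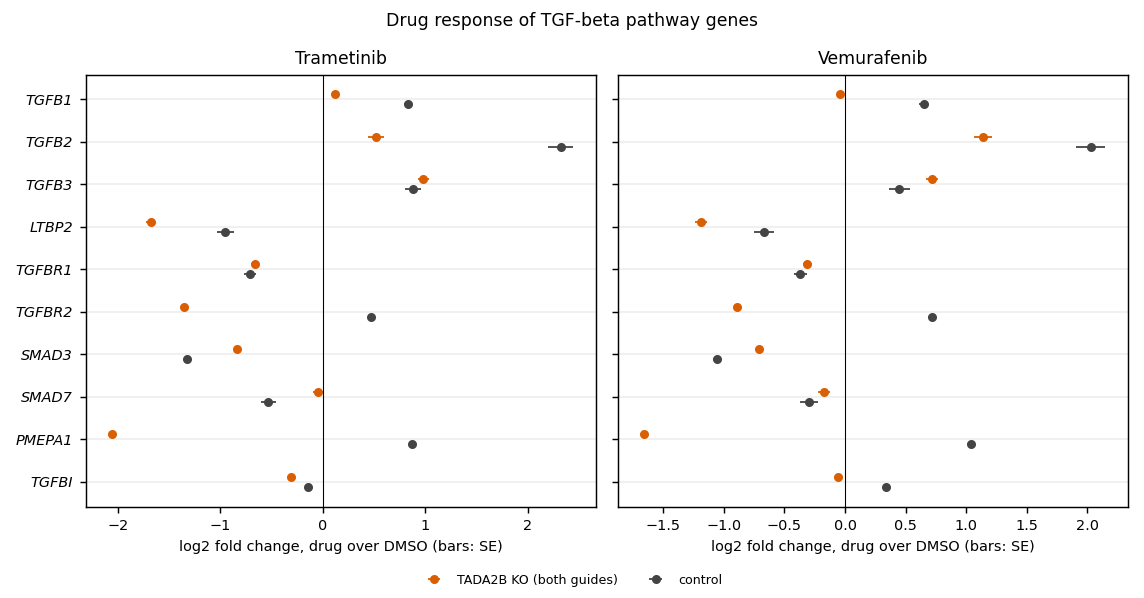
Log2 fold change of each gene, drug over DMSO, for trametinib (left) and vemurafenib (right), with knockout cells (mean of both guides) and control cells as coloured points and the SE as bars. PMEPA1 and TGFBR2 lie left of 0 in knockout cells and right of 0 in control cells with both drugs, while TGFBR1 lies left of 0 in both.

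Among the ligands TGFB1 (ENSG00000105329, chromosome 19, 41301587 to 41353911, minus strand, hg38) was by far the most abundant. Per kilobase of exon, TGFB1 took between 93.3% and 97.1% of the summed CPM of the 3 ligands in the 9 groups. In DMSO it stood at 183, 174 and 180.3 CPM with guide 1, at 202, 198 and 204 CPM with guide 2, and at 120.0, 123 and 130.3 CPM in control cells. Every knockout library lay above every control library, and the knockout effect was log2 0.61 ± 0.031 (SE, edgeR adjusted p = 2.71e-22). In trametinib the values were 205, 216 and 210.0 CPM with guide 1, 199, 204 and 203 CPM with guide 2, and 213, 213 and 236 CPM in control cells. In vemurafenib they were 185, 183 and 184 CPM with guide 1, 190.0, 193 and 175 CPM with guide 2, and 198, 197 and 192 CPM in control cells. Knockout and control libraries overlapped in both drugs, and the small falls, log2 -0.10 ± 0.030 in trametinib and -0.08 ± 0.030 in vemurafenib, were each lost in some settings, such as without the third control library in trametinib (adjusted p = 0.222) and without the third guide 2 library in vemurafenib (adjusted p = 0.0604). Trametinib raised TGFB1 by log2 0.12 ± 0.025 in knockout cells and by 0.83 ± 0.035 in control cells, a difference of -0.71 ± 0.043 (adjusted p = 3.38e-19). Vemurafenib gave log2 -0.04 ± 0.025 in knockout cells, which did not pass the test, and 0.65 ± 0.035 in control cells, a difference of -0.69 ± 0.043 (adjusted p = 9.80e-19). The rise in knockout cells under trametinib was not called with guide 2 alone (log2 0.005). TGFB1 shares 215 exon bases, 6.64% of its exon length, with HNRNPUL1 on the opposite strand, which held 25930 to 45365 counts per library.

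TGFB2 (ENSG00000092969, chromosome 1, 218346235 to 218444619, plus strand), the ligand that needs a co-receptor for high-affinity binding, was a low transcript that both drugs raised most among the 10 genes in control cells. In trametinib TGFB2 stood at 4.79, 5.49 and 5.57 CPM with guide 1, at 6.47, 5.75 and 5.19 CPM with guide 2, and at 10.5, 10.4 and 9.42 CPM in control cells. In vemurafenib it stood at 7.80, 7.74 and 8.63 CPM with guide 1, at 8.90, 8.51 and 9.56 CPM with guide 2, and at 7.98, 7.15 and 9.63 CPM in control cells. In DMSO it stood at 3.80, 2.99 and 3.05 CPM with guide 1, at 4.46, 4.30 and 4.89 CPM with guide 2, and at 1.68, 2.57 and 1.78 CPM in control cells. Knockout libraries were all above control libraries in DMSO, all below them in trametinib, and among them in vemurafenib. The knockout effect was accordingly log2 0.93 ± 0.12 in DMSO (adjusted p = 1.97e-09), -0.87 ± 0.087 in trametinib (adjusted p = 8.01e-12) and 0.04 ± 0.088 in vemurafenib, with a 95% interval of -0.14 to 0.23. The trametinib response was log2 0.52 ± 0.080 in knockout cells and 2.32 ± 0.12 in control cells, which is 1.43-fold in knockout cells and 4.99-fold in control cells. The vemurafenib response was 1.14 ± 0.078 in knockout cells and 2.03 ± 0.12 in control cells. Both differences passed the test, at -1.80 ± 0.14 for trametinib (adjusted p = 2.06e-14) and -0.89 ± 0.15 for vemurafenib (adjusted p = 1.63e-06). TGFB2 shares 26.6% of its exon length with TGFB2-OT1 on the same strand, which held 0 counts in all 27 libraries, and how reads there were counted is not given in the sources used here.

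TGFB3 (ENSG00000119699, chromosome 14, 75958099 to 75982991, minus strand), the remaining ligand, was raised by both drugs and by the knockout in every treatment. It averaged 10.5 ± 0.718 CPM with guide 1, 14.1 ± 0.495 CPM with guide 2 and 6.81 ± 0.352 CPM in control cells in trametinib. In vemurafenib it averaged 8.88 ± 0.499 CPM with guide 1, 11.6 ± 0.447 CPM with guide 2 and 5.08 ± 0.110 CPM in control cells. In DMSO it averaged 6.04 ± 0.343 CPM with guide 1, 6.27 ± 0.473 CPM with guide 2 and 3.71 ± 0.234 CPM in control cells (SD, n = 3 each). No knockout library overlapped a control library of the same treatment, and the knockout effect was log2 0.84 ± 0.064 in trametinib, 1.00 ± 0.067 in vemurafenib and 0.73 ± 0.073 in DMSO. The trametinib response was log2 0.98 ± 0.052 in knockout cells and 0.88 ± 0.081 in control cells, and their difference of 0.11 did not pass the test (95% interval -0.10 to 0.31). The vemurafenib response was log2 0.72 ± 0.052 in knockout cells and 0.45 ± 0.084 in control cells. Their difference of 0.27 ± 0.099 passed it at adjusted p = 0.0252, and was lost with guide 1 alone (adjusted p = 0.546), without the first control library in DMSO (0.118), and without the filter on low counts (0.0675).

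LTBP2 (ENSG00000119681, chromosome 14, 74498170 to 74612378, minus strand), a matrix protein of the latent TGF-beta binding family that does not itself hold the latent ligand, rose most of the 10 genes with the knockout in DMSO. Its levels in DMSO were 20.2, 19.4 and 17.8 CPM with guide 1, 27.3, 27.3 and 25.2 CPM with guide 2, and 5.11, 5.63 and 6.43 CPM in control cells. In trametinib they were 5.98, 6.25 and 6.10 CPM with guide 1, 8.35, 8.13 and 7.83 CPM with guide 2, and 2.86, 3.12 and 2.89 CPM in control cells. In vemurafenib they were 9.00, 8.24 and 8.01 CPM with guide 1, 11.7, 11.8 and 11.3 CPM with guide 2, and 3.79, 3.61 and 3.33 CPM in control cells. Knockout libraries lay above control libraries in each treatment, and drug-treated libraries lay below the DMSO libraries of their population. The knockout effect was log2 1.98 ± 0.066 in DMSO, or 3.94-fold (adjusted p = 9.69e-30), 1.25 ± 0.074 in trametinib and 1.46 ± 0.071 in vemurafenib. Trametinib lowered LTBP2 by log2 -1.68 ± 0.049 in knockout cells and -0.95 ± 0.085 in control cells, and vemurafenib by -1.19 ± 0.048 in knockout cells and -0.67 ± 0.083 in control cells. The responses differed by -0.73 ± 0.099 (adjusted p = 2.06e-08) for trametinib and -0.51 ± 0.096 (adjusted p = 1.43e-05) for vemurafenib. Guide 2 held more LTBP2 than guide 1 in all 3 treatments.

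The receptors behaved unlike each other. TGFBR2 (ENSG00000163513, chromosome 3, 30606502 to 30694142, plus strand), the ligand-binding kinase, stood in DMSO at 139, 140.2 and 146 CPM with guide 1, at 171, 165 and 168 CPM with guide 2, and at 60.4, 60.9 and 60.8 CPM in control cells. In trametinib it stood at 59.8, 60.4 and 61.0 CPM with guide 1, at 62.0, 59.5 and 60.9 CPM with guide 2, and at 85.7, 81.8 and 85.1 CPM in control cells. In vemurafenib it stood at 81.3, 84.8 and 81.0 CPM with guide 1, at 86.4, 84.3 and 84.2 CPM with guide 2, and at 98.2 to 101 CPM in the 3 control libraries. Knockout libraries were all above control libraries in DMSO and all below them in either drug. Knockout cells in trametinib overlapped control cells in DMSO, at a mean of 60.4 ± 0.579 CPM with guide 1, 60.8 ± 1.25 CPM with guide 2 and 60.7 ± 0.297 CPM in those control cells. The knockout effect was log2 1.35 ± 0.028 in DMSO (2.55-fold, adjusted p = 5.59e-38), -0.47 ± 0.026 in trametinib and -0.25 ± 0.026 in vemurafenib. Trametinib changed TGFBR2 by log2 -1.35 ± 0.022 in knockout cells and 0.47 ± 0.031 in control cells. Vemurafenib changed it by -0.89 ± 0.021 in knockout cells and 0.72 ± 0.031 in control cells. The differences were -1.82 ± 0.038 (adjusted p = 1.74e-37) for trametinib and -1.60 ± 0.038 (adjusted p = 3.57e-35) for vemurafenib, and both were also called with each guide alone. With guide 1 they were -1.70 for trametinib and -1.50 for vemurafenib, and with guide 2 they were -1.94 for trametinib and -1.70 for vemurafenib.

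TGFBR1 (ENSG00000106799, chromosome 9, 99104038 to 99154192, plus strand), the kinase that phosphorylates the SMADs, was lowered by both drugs in both populations. In trametinib it averaged 33.6 ± 2.95 CPM with guide 1, 33.6 ± 1.10 CPM with guide 2 and 31.8 ± 1.68 CPM in control cells. In vemurafenib it averaged 45.9 ± 1.58 CPM with guide 1, 40.5 ± 4.42 CPM with guide 2 and 40.3 ± 1.87 CPM in control cells. In DMSO it averaged 54.0 ± 1.08 CPM with guide 1, 52.6 ± 0.370 CPM with guide 2 and 52.1 ± 2.13 CPM in control cells (SD, n = 3 each). Libraries overlapped between knockout and control in every treatment. Trametinib lowered TGFBR1 by log2 -0.66 ± 0.039 in knockout cells and -0.71 ± 0.055 in control cells, and vemurafenib by -0.31 ± 0.038 in knockout cells and -0.37 ± 0.054 in control cells. The knockout effect did not pass the test in any treatment, with 95% intervals of -0.02 to 0.18 in trametinib, -0.00 to 0.20 in vemurafenib and -0.06 to 0.13 in DMSO. In vemurafenib it became a call in some settings, such as guide 1 alone (log2 0.188, adjusted p = 0.00391). The interactions did not pass the test either, at 0.04 ± 0.067 for trametinib (95% interval -0.10 to 0.19) and 0.06 ± 0.067 for vemurafenib (-0.08 to 0.20).

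SMAD3 (ENSG00000166949, chromosome 15, 67063763 to 67195195, plus strand), the DNA-binding signal carrier, was lowered by both drugs and raised by the knockout. In trametinib its libraries held 76.4, 80.0 and 79.3 CPM with guide 1, 99.0, 96.6 and 94.8 CPM with guide 2, and 46.9, 45.2 and 45.6 CPM in control cells. In vemurafenib they held 87.6, 87.7 and 87.7 CPM with guide 1, 107, 104 and 101 CPM with guide 2, and 54.9, 56.3 and 53.9 CPM in control cells. In DMSO they held 143, 142 and 142 CPM with guide 1, 178, 165 and 173 CPM with guide 2, and 112, 119 and 113 CPM in control cells. The libraries of the 9 groups did not overlap with each other at any step of their order, from control cells in trametinib at the low end to guide 2 in DMSO at the high end. The drug responses were smaller in knockout cells, at log2 -0.84 ± 0.023 in knockout cells and -1.32 ± 0.033 in control cells for trametinib and -0.71 ± 0.023 in knockout cells and -1.06 ± 0.033 in control cells for vemurafenib. Those responses differed by 0.48 ± 0.040 for trametinib (adjusted p = 3.19e-14) and 0.35 ± 0.040 for vemurafenib (adjusted p = 3.75e-10). Knockout over control gave log2 0.93 ± 0.030 in trametinib, 0.80 ± 0.029 in vemurafenib and 0.45 ± 0.028 in DMSO.

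SMAD7 (ENSG00000101665, chromosome 18, 48919853 to 48952052, minus strand), the inhibitory SMAD, rose with the knockout in every treatment. It averaged 12.2 ± 0.373 CPM with guide 1, 14.9 ± 1.52 CPM with guide 2 and 6.55 ± 0.509 CPM in control cells in trametinib. In vemurafenib it averaged 11.5 ± 0.342 CPM with guide 1, 13.5 ± 0.680 CPM with guide 2 and 7.70 ± 0.226 CPM in control cells. In DMSO it averaged 13.3 ± 0.583 CPM with guide 1, 14.8 ± 1.35 CPM with guide 2 and 9.50 ± 0.566 CPM in control cells (SD, n = 3 each). Every knockout library lay above every control library, also across treatments. Knockout over control gave log2 1.04 ± 0.066 in trametinib, 0.69 ± 0.065 in vemurafenib and 0.56 ± 0.063 in DMSO. Trametinib gave log2 -0.05 ± 0.049 in knockout cells, which did not pass the test, and -0.53 ± 0.076 in control cells, a difference of 0.48 ± 0.090 (adjusted p = 1.55e-05). Vemurafenib lowered SMAD7 by -0.17 ± 0.049 in knockout cells and -0.30 ± 0.075 in control cells, a difference of 0.13 ± 0.090 that did not pass it (95% interval -0.06 to 0.32). The fall in knockout cells under vemurafenib was not called with guide 2 alone (adjusted p = 0.0921).

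PMEPA1 (ENSG00000124225, chromosome 20, 57648392 to 57711536, minus strand), the feedback inhibitor with the start site shown above, showed the greatest interaction of the 10 genes with either drug. In trametinib PMEPA1 stood at 69.6, 67.5 and 70.0 CPM with guide 1, at 35.6, 38.1 and 36.3 CPM with guide 2, and at 189, 183 and 186 CPM in control cells. In vemurafenib it stood at 93.0, 93.4 and 94.5 CPM with guide 1, at 47.7, 46.4 and 47.3 CPM with guide 2, and at 213, 205 and 209 CPM in control cells. In DMSO it stood at 247, 249.5 and 259.6 CPM with guide 1, at 184, 175 and 164 CPM with guide 2, and at 102, 103 and 100.4 CPM in control cells. The knockout libraries thus lay above the control libraries in DMSO and below them in both drugs, and in the drugs they also lay below control cells in DMSO. The knockout effect was log2 -1.89 ± 0.027 in trametinib (3.70-fold lower, adjusted p = 1.45e-44), -1.65 ± 0.027 in vemurafenib (3.15-fold lower, adjusted p = 1.82e-42) and 1.04 ± 0.029 in DMSO (2.06-fold higher, adjusted p = 9.12e-33). Trametinib changed PMEPA1 by log2 -2.06 ± 0.024 in knockout cells and 0.87 ± 0.032 in control cells, which is 4.17-fold lower in knockout cells and 1.83-fold higher in control cells. Vemurafenib changed it by -1.66 ± 0.023 in knockout cells and 1.04 ± 0.032 in control cells. The responses differed by -2.93 ± 0.040 (adjusted p = 1.10e-44) for trametinib and -2.70 ± 0.040 (adjusted p = 2.46e-43) for vemurafenib. With guide 1 alone the differences were -2.74 ± 0.046 for trametinib and -2.47 ± 0.046 for vemurafenib, and with guide 2 alone -3.12 ± 0.047 for trametinib and -2.93 ± 0.047 for vemurafenib. PMEPA1 shares 6.1% of its exon length with the antisense gene NKILA, which held 197 to 408 counts per library against 2586 to 20322 for PMEPA1.

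TGFBI (ENSG00000120708, chromosome 5, 136028895 to 136063818, plus strand), a secreted matrix protein named for its induction by TGF-beta, was the most abundant of the 10 genes per kilobase in knockout cells. It stood at 102 CPM per kilobase with guide 1, 106 with guide 2 and 33.8 in control cells in DMSO. By library TGFBI held 781, 805 and 809 CPM with guide 1, 858, 829 and 801 CPM with guide 2, and 260.2, 264 and 267 CPM in control cells in DMSO. It ranged over 632 to 683 CPM in knockout libraries and 229.8 to 248 CPM in control libraries in trametinib, and over 726 to 808 CPM in knockout libraries and 333 to 336 CPM in control libraries in vemurafenib. Knockout libraries lay above all control libraries whatever the treatment. Knockout over control gave log2 1.45 ± 0.028 in trametinib, 1.22 ± 0.028 in vemurafenib and 1.63 ± 0.028 in DMSO (3.09-fold, adjusted p = 5.03e-41). The drugs moved it less, with trametinib at log2 -0.31 ± 0.021 in knockout cells and -0.14 ± 0.031 in control cells and vemurafenib at -0.06 ± 0.021 in knockout cells and 0.34 ± 0.030 in control cells. The responses differed by -0.17 ± 0.037 (adjusted p = 1.03e-04) for trametinib and -0.40 ± 0.037 (adjusted p = 5.49e-13) for vemurafenib. The small fall in knockout cells under vemurafenib was lost with guide 1 alone (adjusted p = 0.878) and without the third guide 2 library in vemurafenib (0.0584).

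**Figure D3:**
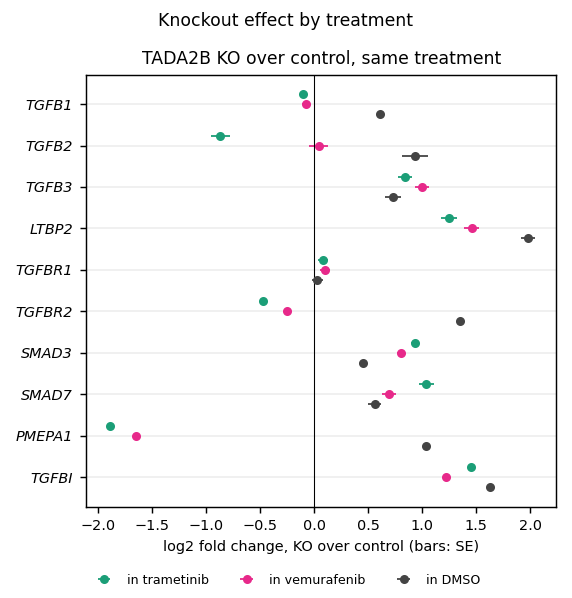
Log2 fold change of each gene, TADA2B knockout (mean of both guides) over control, within trametinib, vemurafenib and DMSO, with the SE as bars. PMEPA1 and TGFBR2 lie left of 0 in the drugs and right of 0 in DMSO, and TGFB3, LTBP2, SMAD3, SMAD7 and TGFBI lie right of 0 in all 3 treatments.

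The guides were compared directly, as guide 2 against guide 1. In DMSO 5 of the 10 genes were higher and 1 lower with guide 2, where 11.9% of all genes were called, 4.64% higher and 7.29% lower. In trametinib 4 were higher and 1 lower, where 19.7% were called, 10.8% higher and 8.91% lower. In vemurafenib 4 were higher and 2 lower, where 16.0% were called, 7.12% higher and 8.85% lower. PMEPA1 was lower with guide 2 in each treatment, by log2 -0.91 ± 0.035 in trametinib, -0.99 ± 0.034 in vemurafenib and -0.53 ± 0.032 in DMSO, with no overlap of libraries. LTBP2 was higher with guide 2 by 0.41 ± 0.073 in trametinib, 0.47 ± 0.070 in vemurafenib and 0.48 ± 0.064 in DMSO, and SMAD3 by 0.30 ± 0.032 in trametinib, 0.25 ± 0.032 in vemurafenib and 0.27 ± 0.031 in DMSO. TGFB3 was higher with guide 2 by 0.43 ± 0.068 in trametinib and 0.39 ± 0.071 in vemurafenib, and its difference of 0.05 in DMSO did not pass the test (95% interval -0.11 to 0.22). The calls in vemurafenib for SMAD7, 0.23 ± 0.070, and TGFBR1, -0.18 ± 0.055, were each lost when single libraries were left out, at adjusted p of 0.0847 for SMAD7 without the first guide 1 library and 0.149 for TGFBR1 without the first guide 2 library.

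The drugs were also set against each other, vemurafenib over trametinib. In knockout cells 7 of the 10 genes were higher and 2 lower in vemurafenib, where 19.2% of all genes were called, 10.9% higher and 8.29% lower. In control cells 7 were higher and 3 lower, where 16.3% were called, 8.78% higher and 7.56% lower. None of the 10 reached 2-fold in either population, where 1.44% of all genes did in each. TGFBR2 was higher in vemurafenib by log2 0.47 ± 0.022 in knockout cells and 0.25 ± 0.030 in control cells, and PMEPA1 by 0.40 ± 0.024 in knockout cells and 0.17 ± 0.032 in control cells. TGFBI was higher in vemurafenib by 0.25 ± 0.021 in knockout cells and 0.48 ± 0.031 in control cells. TGFB2 was higher by 0.62 ± 0.074 in knockout cells and lower in control cells, at -0.29 ± 0.10 (adjusted p = 0.0413). That call in control cells, and those for SMAD7 and LTBP2 there, were lost when single libraries were left out, at adjusted p up to 0.282 for TGFB2 without the second control library in vemurafenib, 0.145 for SMAD7 without the third in trametinib and 0.144 for LTBP2 without the first in vemurafenib. The drugs were given at 1 dose each, so the comparison is of these doses.

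Other target genes of TGF-beta, a list of 20 of which CDKN2B did not pass the filter, were read alongside. For this and the further lists, knockout CPM are means over the libraries of both guides. The listed genes were not tested with each guide alone. In DMSO 14 of the 19 tested were higher and 5 lower in knockout cells, where 57.9% of all genes were called, 29.3% higher and 28.6% lower. The median log2 fold change was 0.78 over the list and 0.00 over all genes. IL11, a cytokine, averaged 40.9 CPM in knockout cells and 11.0 CPM in control cells (log2 1.86 ± 0.066), and ANGPTL4, a secreted inhibitor of lipoprotein lipase, 9.93 CPM in knockout cells and 3.12 CPM in control cells (1.66 ± 0.10). The collagen gene COL1A2 was lower, but at 0.0457 CPM in knockout cells and 0.216 CPM in control cells.

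The drug responses of that list differed between populations for 16 of the 19 genes with trametinib, 4 higher and 12 lower, where 43.9% of all genes were called, 20.8% higher and 23.2% lower. With vemurafenib they differed for 15, 3 higher and 12 lower, where 42.5% were called, 20.0% higher and 22.4% lower. The median difference was -0.54 with trametinib and -0.49 with vemurafenib, where the medians over all genes were -0.02 and -0.01. IL11 differed by -2.44 ± 0.10 with trametinib and -1.63 ± 0.11 with vemurafenib, and CCN2, a matrix-associated protein, by -1.56 ± 0.054 with trametinib and -1.61 ± 0.055 with vemurafenib. CCN2 averaged 25.9 CPM in knockout cells and 43.6 CPM in control cells in trametinib, 21.9 CPM in knockout cells and 38.2 CPM in control cells in vemurafenib, and 65.5 CPM in knockout cells and 38.1 CPM in control cells in DMSO. TSC22D1, a transcription regulator named for its response to TGF-beta, differed by -1.32 ± 0.033 with each drug. In control cells trametinib raised 9 and lowered 10 of the 19, led by SNAI2 at log2 3.33 ± 0.079, a repressor of epithelial genes, where 69.0% of all genes were called. Vemurafenib raised 7 and lowered 10, led by the same gene at 3.23 ± 0.079, where 67.3% were called. The fibroblast marker COL1A1 is also in this list.

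**Figure D4:**
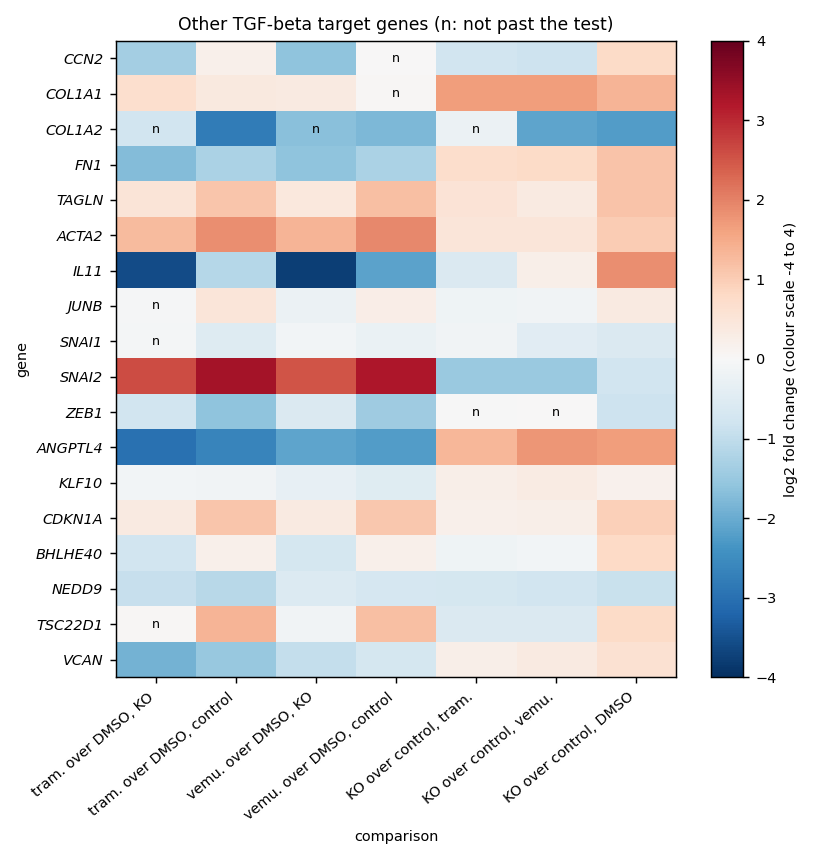
Log2 fold change of tested genes of the target list (rows) in 7 comparisons (columns), on a colour scale from -4 to 4, with n where the adjusted p was 0.05 or higher. IL11, FN1 and VCAN are blue in both drugs in either population and mostly red in knockout over control.

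In the activin branch, whose ligands signal through SMAD2 and SMAD3 by other receptors, 6 of 8 genes were tested. FST, the secreted inhibitor of activin, fell by log2 -4.01 ± 0.041 in knockout cells and -5.77 ± 0.055 in control cells with trametinib, and by -3.72 ± 0.041 in knockout cells and -5.44 ± 0.054 in control cells with vemurafenib. In DMSO FST averaged 55.2 CPM in knockout cells and 299 CPM in control cells, and was called lower (log2 -2.47 ± 0.035). INHBA, the activin A subunit, averaged 74.1 CPM in knockout cells and 19.6 CPM in control cells in trametinib, and 86.3 CPM in knockout cells and 19.2 CPM in control cells in vemurafenib. Those knockout effects were log2 1.91 ± 0.044 in trametinib and 2.16 ± 0.044 in vemurafenib. In control cells INHBA averaged 168 CPM in DMSO, and trametinib changed it there by log2 -3.09 ± 0.048. The knockout averages in either drug lay below that DMSO level. GDF11, a related ligand, was lower in knockout cells by -0.77 ± 0.024 in trametinib, -0.81 ± 0.024 in vemurafenib and -0.52 ± 0.025 in DMSO. With the knockout 2 of the 6 were higher and 3 lower in trametinib (55.9% of all genes called), 2 higher and 3 lower in vemurafenib (55.6%), and 2 higher and 2 lower in DMSO (57.9%).

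Among 10 other SMADs and SMAD regulators, the trametinib response differed between populations for 7, 2 higher and 5 lower, where 43.9% of all genes were called. The vemurafenib response differed for 8, 3 higher and 5 lower, where 42.5% were called. SKIL, a corepressor induced by TGF-beta, differed by -0.94 ± 0.091 with trametinib and -0.72 ± 0.091 with vemurafenib. It averaged 62.9 CPM in knockout cells and 71.8 CPM in control cells in trametinib, 65.3 CPM in knockout cells and 64.2 CPM in control cells in vemurafenib, and 77.4 CPM in knockout cells and 46.3 CPM in control cells in DMSO. LDLRAD4, an inhibitor of the pathway related to PMEPA1, differed by 2.32 ± 0.34 with trametinib and 2.54 ± 0.33 with vemurafenib but stayed at 0.326 to 1.43 CPM on average. Of 7 other receptors and co-receptors, the decoy receptor BAMBI differed most, by 1.15 ± 0.069 with trametinib and 0.96 ± 0.066 with vemurafenib, and in DMSO 2 of the 7 were higher and 2 lower with the knockout, near the 57.9% called over all genes. Of 9 latency and activation genes tested, 5 were higher and 2 lower with the knockout in DMSO, where 29.3% of all genes were higher and 28.6% lower. The largest called change there was of ITGB6, at 0.132 CPM in knockout cells and 0.0136 CPM in control cells, followed by THBS1, an activator of the latent ligand, at 452 CPM in knockout cells and 634 CPM in control cells.

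Likeness of pattern was measured as Pearson's r of log2 CPM over the 9 group means with 12167 protein-coding genes, as a description, since the means share libraries and few distinct treatments. PMEPA1 was most like MAFG (r = 0.976), HDAC4 (0.967) and NR1D1 (0.966), and TGFBR2 most like TSSC4 (0.981). SMAD3 was most like ARRB1 (0.998), TGFBI most like CD82 (0.994), LTBP2 most like LAT2 (0.993) and SMAD7 most like CALHM3 (0.990). TGFB1 was most like ATG4A (0.981) and TGFB2 most like RUBCN (0.971). TGFB3 was most like ALPG and ALPP (0.989 each), which are near-identical copies whose reads may be split. TGFBR1 was most like TRIB2 (0.985), followed by NAT10 (0.978) and DUSP6, a phosphatase of ERK (0.977).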

How the data were processed

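The authors deposited 1 table of whole-number read counts per gene for 27 libraries, not normalized. Per the labels' protocols, libraries of polyA RNA were made with a stranded kit from KAPA after extraction on QIAGEN RNeasy Plus columns. Per the submitters' processing notes, bcl2fastq, HISAT2 and HTSeq were used with hg38, while the versions, the annotation and the strand setting of the counting were not given in the sources used. Groups came from the sample titles. Gene symbols, coordinates, exon lengths and overlaps came from GENCODE 29.

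Counts were filtered with filterByExpr and tested with edgeR 4.0.16 in R 4.3.3, by the quasi-likelihood test with TMM factors and robust dispersion, with 1 mean for each of the 9 groups and 18 residual degrees of freedom. P-values were adjusted by the Benjamini-Hochberg method over 25199 genes and called under 0.05. The knockout effect is the mean of both guides minus control. CPM are counts over the library total times its TMM factor. Exon-length scaling was used only where levels of different genes are compared. Errors after log2 values are SE and after CPM are SD. The common biological coefficient of variation was 4.02%.

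Alternatives were DESeq2 size factors, the DESeq2 1.42.0 Wald test, no low-count filter (at least 1 count), each guide alone, a replicate block and leaving out each library. All 10 genes are named, and from each further list at most 4 called genes with the largest change per comparison. A few genes of the further lists are counted but not reported here by name. The genes and lists were chosen with earlier results of these data known. TMM scaling sets changes against most other genes, and a shift in the total RNA of a cell cannot be seen.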

Additional observations from a re-analysis of the deposited data

Results flagged for a closer look

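The drug response of knockout cells differed from that of control cells, by a test of the difference itself (edgeR quasi-likelihood interaction, adjusted over all genes), for 8 of the 10 genes with each drug, where 43.9% of all genes were called with trametinib and 42.5% with vemurafenib. With trametinib the log2 differences, knockout minus control, were -0.71 for TGFB1, -1.80 for TGFB2, -1.82 for TGFBR2, -2.93 for PMEPA1, -0.73 for LTBP2 and -0.17 for TGFBI, and 0.48 for SMAD3 as for SMAD7. With vemurafenib they were -0.69 for TGFB1, -0.89 for TGFB2, -1.60 for TGFBR2, -2.70 for PMEPA1, -0.51 for LTBP2 and -0.40 for TGFBI. The called positive differences for vemurafenib were 0.35 for SMAD3 and 0.27 for TGFB3, and the call for TGFB3 was lost with guide 1 alone (adjusted p = 0.546), without the low-count filter (0.0675) and without several single libraries. TGFBR2 and PMEPA1 had called responses of opposite sign in the populations with both drugs. The differences for both drugs share the same DMSO libraries and are not independent of each other.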

How the results depend on the processing

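Over 2070 combinations of a gene, a comparison and an alternative setting, 2017 kept direction and call, 33 lost the call, 7 gained one and 13 turned sign. No value that turned sign was a call. The number of the 10 genes called moved by at most 1.5 times in every comparison and setting. Over all genes, the number called moved further in 1 case, vemurafenib against trametinib in knockout cells, with 2795 calls with guide 2 alone where the main count was 4826. Guide 1 alone gave 3298 calls in that comparison. Each guide alone rests on fewer libraries than both together, and the cause was not tested. TGFBR1 between guides in trametinib, at -0.001, became 0.001 with DESeq2 size factors and 0.001 with its Wald test, and 0.068, 0.013 and 0.010 without single libraries, with a range of -0.056 to 0.068. With guide 1 alone TGFB1 in knockout cells under vemurafenib gave 0.036, TGFB2 knockout effect in vemurafenib -0.035 and the TGFB3 trametinib interaction -0.083. With guide 2 alone SMAD7 in knockout cells under trametinib gave 0.016 and the TGFBR1 vemurafenib interaction -0.007. Without single libraries the TGFB2 knockout effect in vemurafenib ranged over -0.047 to 0.169, and guide differences over -0.003 to 0.026 for TGFBR2 in trametinib and -0.008 to 0.060 for TGFB1 in vemurafenib. Leaving out each library gave 7 to 9 genes called for vemurafenib against trametinib in control cells, 4 to 6 for the guides in vemurafenib and 7 to 9 for the knockout in vemurafenib. With the replicate number as a block, 9 genes were called for the knockout in DMSO as without it, and no call changed. Libraries with the same number did not deviate together, since the correlation of their deviations lay between -0.0531 and 0.0545 over 108 pairs and 10 of 27 libraries were closest to their own number. DESeq2 size factors shifted the median of all genes by -0.012 for trametinib in control cells. Depth limits the genes under 1 CPM.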
